A study of Mus musculus with 6 samples.

Results

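Fgf5, Otx2, Pou3f1, Zic2, Foxd3 and Sall2 are 6 genes grouped here as factors of the formative and primed epiblast. They are described in mouse embryonic stem cells sorted by a reporter of the two-cell-like state. They were taken as a list of gene symbols and found in the table of the authors' comparison, where all 6 had a row among 17110 genes. All 6 also had an identifier in the authors' table of counts. The cells are of the line that the labels call TG2A, and all carried a MERVL-driven fluorescent protein. MERVL is an endogenous retrovirus that is active in the mouse embryo at the stage after the first cleavage and in rare cells of stem cell cultures. The cells were grown in serum with leukemia inhibitory factor and sorted for the presence or absence of DsRed2 signal, with 3 DsRed2-positive and 3 DsRed2-negative samples collected on separate dates. Both groups shared the line, the reporter and the medium, and the labels give no further treatment. The sort rests on reporter fluorescence alone, and neither group is described as a single clone.

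The table does not say which sorted group is the numerator of its fold changes, nor does it name the groups, which were taken from the labels because no others are listed. Every sign below is therefore the sign as deposited. A gene called negative had its fold change below 0, and a pair of genes with opposite signs were higher in opposite groups, whichever group that is. The 6 columns of the count table have names that match no sample, so values per sample, depth per library and the overlap between groups were not analysed here. Precision is given by the authors' standard error (SE). Because these are bulk samples, fewer expressing cells and less RNA per cell cannot be told apart.

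The epiblast of the mouse embryo passes from a naive state before implantation to a formative and then a primed state after it, and cultured stem cells follow a similar path when leukemia inhibitory factor is withdrawn. Naive cells express factors such as Esrrb, Tbx3 and Zfp42. On the way out of that state these are silenced, the core factors Pou5f1 and Sox2 stay on, and a second set of regulators is switched on. In that set, Fgf5 encodes a secreted fibroblast growth factor that is the classical marker of the post-implantation epiblast. Otx2 encodes a homeodomain factor and Pou3f1 a POU factor, also called Oct6, both of which act at enhancers of the epiblast. Zic2 and Sall2 encode zinc-finger factors, and Foxd3 encodes a forkhead factor that is needed in pluripotent cells and in the neural crest.

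The promoters of Fgf5 and Foxd3 are shown because these genes stood at the opposite ends of the set and each has a single start site in the RefSeq table. Each sequence is the 250 bases before the RefSeq start on build GRCm38.p6, which is not the GRCm39 build of the submitters' processing notes. Both lie on the plus strand, that of Fgf5 at chr5:98253934-98254183 and that of Foxd3 at chr4:99656049-99656298. Capitals mark a GC box (GGGCGG or its complement CCGCCC) in Fgf5, and in Foxd3 a cyclic AMP response element (TGACGTCA) followed by an E-box (CACGTG).
Fgf5: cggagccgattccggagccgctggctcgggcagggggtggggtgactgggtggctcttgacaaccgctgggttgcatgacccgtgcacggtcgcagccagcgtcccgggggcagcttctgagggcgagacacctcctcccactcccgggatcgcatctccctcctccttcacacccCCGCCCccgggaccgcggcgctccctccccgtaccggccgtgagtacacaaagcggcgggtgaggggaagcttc
Foxd3: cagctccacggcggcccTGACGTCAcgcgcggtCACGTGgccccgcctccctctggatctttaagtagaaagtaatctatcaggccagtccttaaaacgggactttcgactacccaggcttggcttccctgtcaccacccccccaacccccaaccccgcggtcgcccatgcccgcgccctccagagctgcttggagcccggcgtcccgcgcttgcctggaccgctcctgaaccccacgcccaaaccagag

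Both of these promoters were rich in CpG. The ratio of observed to expected CpG was 0.77 for Fgf5 and 0.85 for Foxd3, against a median of 0.37 over 32851 RefSeq windows of the same length. GC content was 70.8% for Fgf5 and 65.6% for Foxd3, against a median of 52.4%. On either strand, the GC box was present in 32.7% of all windows, the E-box in 6.02% and the cyclic AMP response element in 1.55%. Otx2 had 4 annotated windows and Sall2 had 2, and which of them was in use is not known from these data. An OTX motif (TAATCC, in 6.25% of all windows) was found in 1 of the 4 Otx2 windows. A TATA box (TATAAA, in 12.4% of all windows) was found in 1 Otx2 window and in 1 Sall2 window. The octamer (ATGCAAAT), the forkhead motif (TGTTTAC) and the TCF/LEF motif (ATCAAAG) were in none of the 8 windows of these 4 genes, searched on both strands. The motifs were chosen after the sequences were seen, and a match is a description of the letters only.

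All 6 factors passed an adjusted p-value of 0.05 in the authors' deposited table, 5 with a negative and 1 with a positive fold change. Of all genes tested there, 30.5% passed, 15.9% with a negative and 14.6% with a positive fold change. Setting the median of ribosomal protein genes to 0 turned this split of 2719 negative and 2492 positive genes into 3508 and 1864. The 5 negative factors, Fgf5, Pou3f1, Zic2, Sall2 and Otx2, ranged from a change of over 100-fold to one of under 2-fold, and Foxd3 stood alone on the positive side. In the authors' deposited table the log2 fold changes of the 6 had their median at -1.12, against 0.0097 over all genes.

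Fgf5 (ENSMUSG00000029337, chromosome 5) had the largest change of the set. In the authors' deposited table its log2 fold change was -7.17 with an SE of 0.53 (DESeq2 adjusted p = 6.61e-40), at a mean normalized count of 246 over the libraries. On the linear scale this is a 144-fold difference, with a 95% interval from the authors' SE of 70.6 to 295. It was the sixth most negative of all 17110 fold changes, and it ranked 2 among genes whose mean count was 100 or more. Its SE was also large. In the authors' deposited table, 99.2% of the 3014 genes within a factor of 2 of its mean count had a smaller SE, and their median SE was 0.20. Whether the libraries of the lower group held any Fgf5 reads was not analysed here, so the size of this fold depends on the authors' fit.

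Pou3f1 (ENSMUSG00000090125, chromosome 4) followed. The authors' deposited table gives it a log2 fold change of -2.66 with an SE of 0.18, a 6.31-fold difference (95% interval 4.95 to 8.04), at a mean normalized count of 463. Its DESeq2 adjusted p of 1.02e-47 in the authors' deposited table was the smallest of the 6, and by p it ranked 52 among all genes, ahead of Fgf5 at rank 76. The intervals of Fgf5 and Pou3f1 did not overlap each other or those of the remaining 4 factors.

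The zinc-finger factors Zic2 and Sall2 changed by similar amounts. Zic2 (ENSMUSG00000061524, chromosome 14) stood on the log2 scale at -1.17 with an SE of 0.20 in the authors' deposited table (DESeq2 adjusted p = 1e-07), at a mean normalized count of 725. Sall2 (ENSMUSG00000049532, chromosome 14) had -1.07 with an SE of 0.14 in the authors' deposited table (DESeq2 adjusted p = 4.17e-12), at a mean of 362. On the linear scale these are differences of 2.25-fold (1.71 to 2.96) and 2.10-fold (1.72 to 2.55), and their intervals overlapped over most of their length.

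Otx2 (ENSMUSG00000021848, chromosome 14), at a mean normalized count of 814, had the largest adjusted p-value of the 6. The authors' deposited table gives -0.56 with an SE of 0.23 and a DESeq2 adjusted p of 0.0476, just inside the threshold. On the linear scale this is a 1.47-fold difference, with a 95% interval of 1.08 to 2.00. Of the 4216 genes within a factor of 2 of its mean count, 94.0% had a smaller SE in the authors' deposited table, the median being 0.13. The call of Otx2 was lost at an adjusted p under 0.01 and when an absolute log2 fold change over 1 was required.

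Foxd3 (ENSMUSG00000067261, chromosome 4) went the other way. Its log2 fold change in the authors' deposited table was 1.12 with an SE of 0.18 (DESeq2 adjusted p = 2.16e-08), at a mean normalized count of 319. This is a 2.17-fold difference (1.69 to 2.79), about as large as those of Zic2 and Sall2 but of opposite sign. Foxd3 was thus higher in the group in which the other 5 factors were lower.

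**Figure D1:**
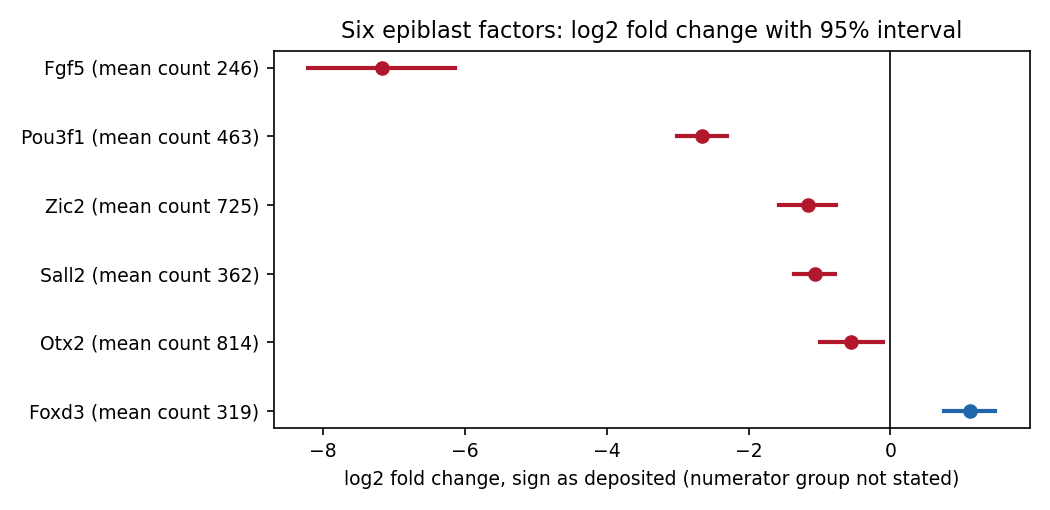
Log2 fold changes of the 6 factors in the authors' deposited table, with points for the estimates and bars for the 95% interval from the authors' standard error; the mean normalized count stands beside each name. Fgf5 lies at -7.17 and Pou3f1 at -2.66, apart from the other negative factors, the interval of Otx2 ends at -0.11, and Foxd3 alone is positive at 1.12.

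Abundance did not order the factors by the size of their change. Per kilobase of annotated exon, the mean normalized count in the authors' deposited table was 252 for Zic2, 193 for Otx2, 137 for Foxd3, 120 for Pou3f1, 98.5 for Fgf5 and 66.6 for Sall2. The median over all genes with an annotated length was 101, so the 6 lay near the middle of the range, with 43.2% to 67.4% of genes at a lower level. No spread over samples could be attached to this order. Cells of the labelled type were clearly represented, since Pou5f1, the defining pluripotency factor, stood at 14595 per kilobase, Zfp42 at 8604, Sox2 at 4903, Nanog at 4475 and Esrrb at 2704 in the same table.

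**Figure D2:**
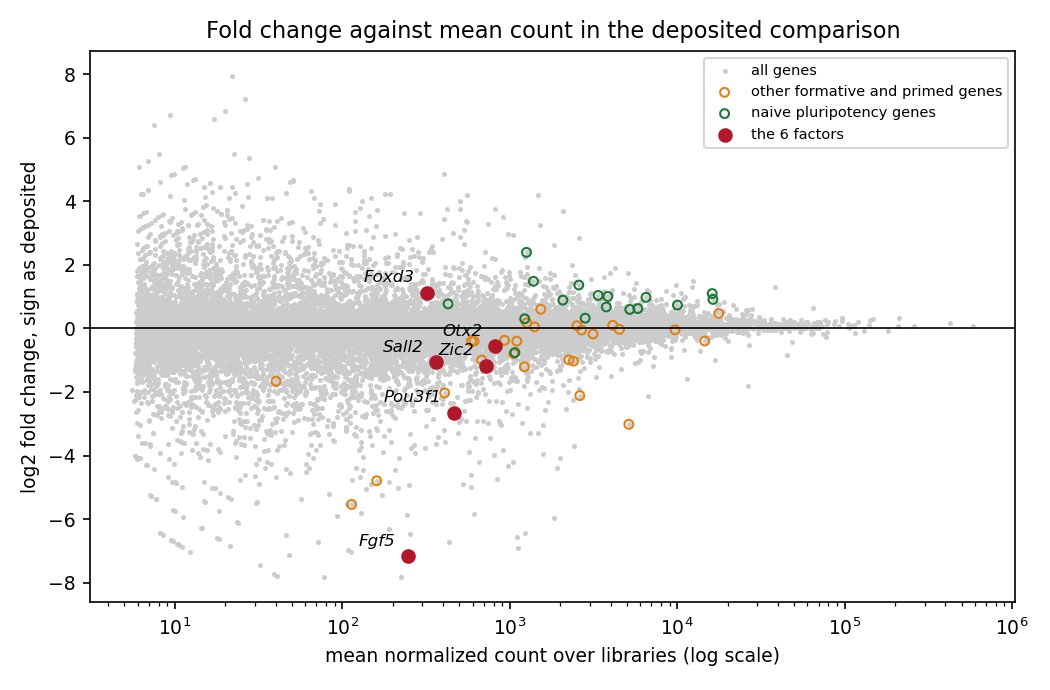
Log2 fold change (vertical axis, sign as deposited) against mean normalized count (horizontal log axis) for all 17110 genes, with the 6 factors, 26 other formative and primed genes and 17 naive genes marked. The factors have means from 246 to 814, Fgf5 lies near the lower edge of the cloud, and the naive genes lie above 0 except for 1.

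Paralogs of the factors were compared family by family. Otx2 and Foxd3 had no paralog with a row among those used. Of the 14 other fibroblast growth factor genes with a row, 2 were negative past the threshold, 3 were positive and 9 did not pass, 8 of the 14 having a mean count under 100. These shares were near those of all genes (15.9% negative and 14.6% positive). Fgf8, a growth factor of the primitive streak, was the one nearest to Fgf5 with -5.54 (SE 0.60, DESeq2 adjusted p = 1.58e-18) in the authors' deposited table. Fgf13, which encodes an intracellular member of the family, had -2.56 (SE 0.22) there. Fgf4, the growth factor made by naive cells that drives their exit from that state, had the opposite sign to Fgf5 in the authors' deposited table, at 1.04 (SE 0.15, DESeq2 adjusted p = 3.52e-10). Fgf17 and Fgf10 were also positive in that table, at 0.63 (SE 0.18) and 1.50 (SE 0.58), and Fgf10 had a mean count of only 23.2.

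Zic5, a paralog of Zic2, passed with the same sign, at -0.80 (SE 0.18, DESeq2 adjusted p = 8.62e-05) in the authors' deposited table. The Sall genes differed in sign. Sall1 had 0.74 (SE 0.098) and Sall4, a regulator of naive and primed pluripotency alike, had 0.39 (SE 0.089) in the authors' deposited table, both past the threshold, and Sall3 did not pass at 0.33 (SE 0.19). Sall2 alone among the 4 was negative. Pou3f4, the only other Pou3f gene with a row, had -1.06 (SE 0.67) in the authors' deposited table at a mean count of 11.04 and did not pass. Reads of closely related genes could have been divided between copies in the counting, so the values of the Zic and Sall genes carry that uncertainty.

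**Figure D3:**
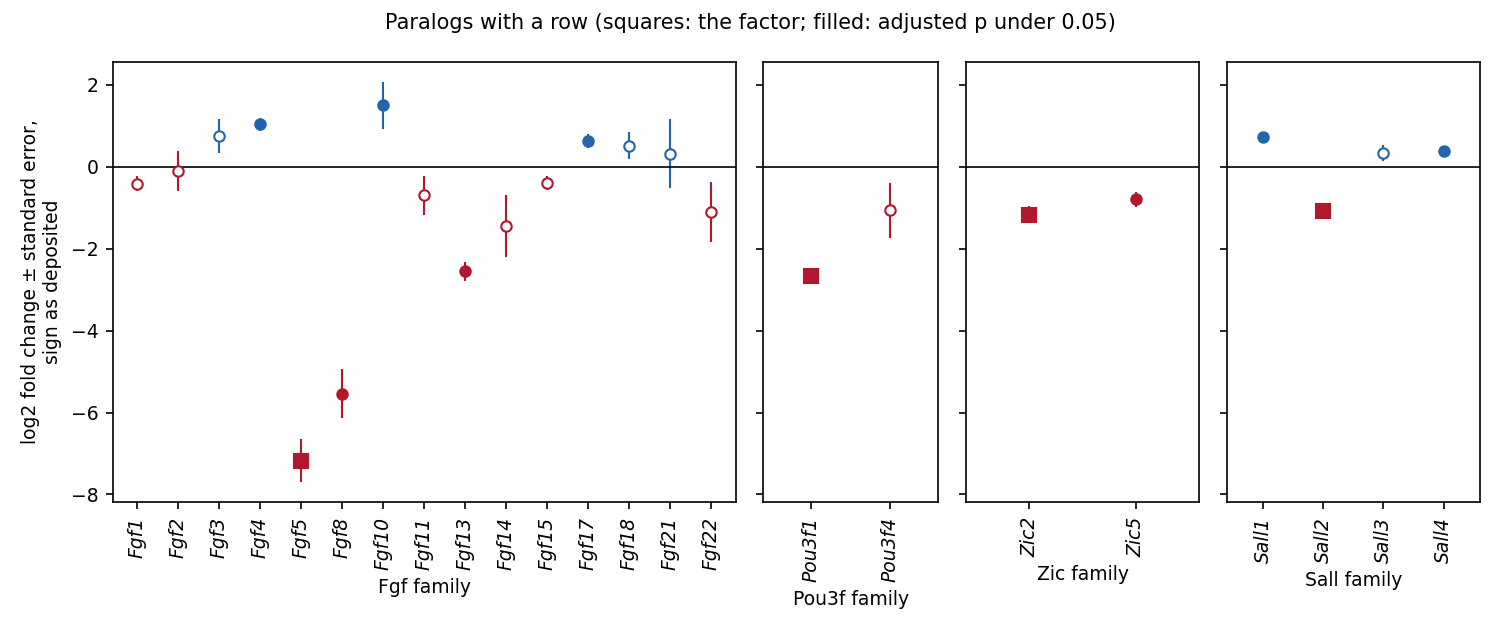
Log2 fold changes with standard errors for the Fgf, Pou3f, Zic and Sall genes that had a row; squares are the described factors, circles their paralogs, and filled symbols passed an adjusted p-value of 0.05. Fgf5 at -7.17 and Fgf4 at 1.04 lie on opposite sides of 0, as do Sall2 at -1.07 and Sall1 at 0.74.

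Genes near the factors in genome order were examined because divergent and antisense transcripts are common at such loci. Neighbours were genes within 20 kilobases, and the nearest protein-coding gene with a row on each side, at any distance. Of 15 neighbours with a row, the authors' deposited table has 5 past the threshold, a share close to the 30.5% of all genes. All 5 had the sign of their factor. Zic2 and Zic5 lie head to head, and the noncoding 2610035F20Rik between them had -1.28 (SE 0.49, DESeq2 adjusted p = 0.0317) in the authors' deposited table, so that the 3 genes of that locus with a row were negative. The nearest protein-coding row beyond Zic2 was Pcca, at -0.047 (SE 0.18), which did not pass. Upstream of Foxd3 on the opposite strand, the long noncoding Gm12688 had 1.09 (SE 0.26, DESeq2 adjusted p = 0.000249) in the authors' deposited table, close to the 1.12 of Foxd3. The nearest protein-coding rows beside Foxd3, Atg4c and Alg6, had -0.35 (SE 0.20) and -0.099 (SE 0.13) in the authors' deposited table, neither past the threshold. Exoc5, the nearest protein-coding row on one side of Otx2, had -0.42 (SE 0.11) there, against -0.56 for Otx2. The nearest protein-coding row on one side of Fgf5 was Antxr2, at -6.09 (SE 1.13) with a mean count of 23.4, and on the other side Prkg2 had -1.09 (SE 0.74) and did not pass. The neighbours of Pou3f1 and Sall2 did not pass, with values between -0.11 and 0.21 in the authors' deposited table. Pou3f1 and Otx2 overlap antisense transcripts (Gm2164 and Otx2os1) that were not analysed here, and the strand setting of the counting is not given in the sources used here, so reads of these pairs cannot be told apart.

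**Figure D4:**
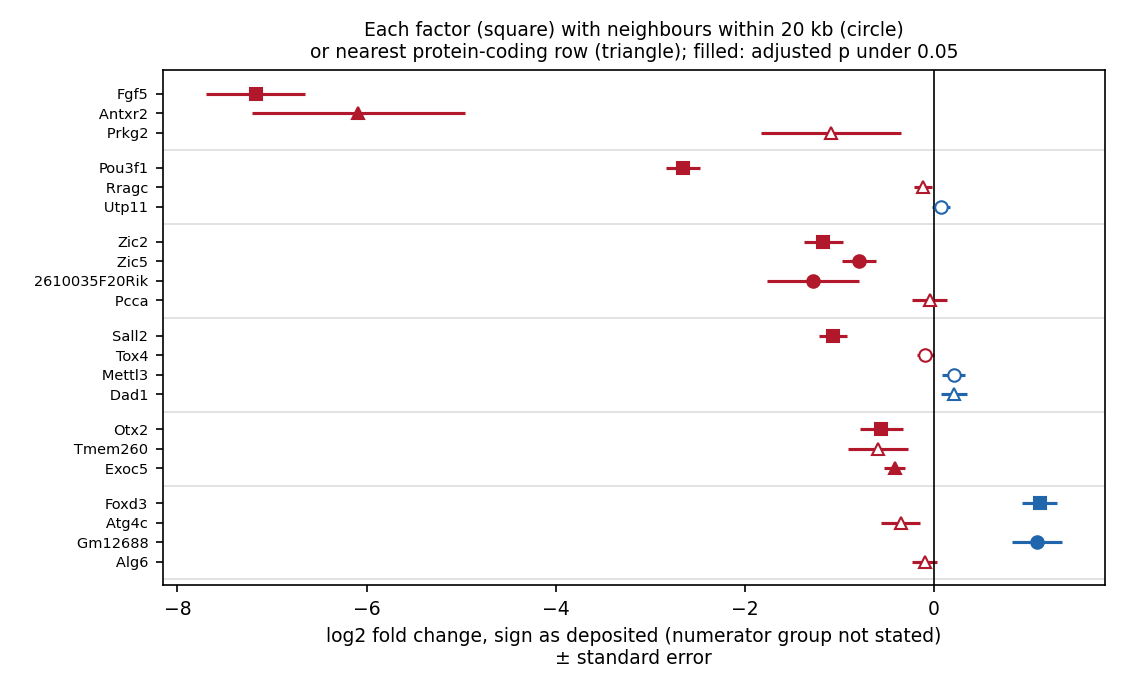
Log2 fold changes with standard errors for each factor (square), for neighbours within 20 kilobases (circle) and for the nearest protein-coding row otherwise (triangle), grouped by factor; filled symbols passed an adjusted p-value of 0.05. Zic5 at -0.80 and 2610035F20Rik at -1.28 lie near Zic2 at -1.17, Gm12688 at 1.09 lies near Foxd3 at 1.12, and the neighbours of Pou3f1 and Sall2 lie near 0.

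Other genes of the formative and primed state were examined next. Of 26 such genes with a row in the authors' deposited table, 12 were negative past the threshold, 2 were positive and 12 did not pass, and their median was -0.40. The 3 with the smallest adjusted p-values and a mean count no lower than 100 were Pim2, a kinase gene, at -3.02 (SE 0.15, DESeq2 adjusted p = 5.2e-91), Wnt8a, a Wnt ligand gene, at -4.79 (SE 0.42) and Fgf8. Cdh2, the neural cadherin, had -2.03 (SE 0.35) and Lin28b, an inhibitor of let-7 maturation, had -1.03 (SE 0.12) in the authors' deposited table, both past the threshold. Of the de novo DNA methyltransferase genes, which rise in the formative state in culture, 1 passed. Dnmt3b had -0.40 (SE 0.16, DESeq2 adjusted p = 0.039) in the authors' deposited table, and Dnmt3a had 0.098 (SE 0.13) and did not pass. Utf1, Lin28a, Nodal and Etv4 also did not pass, with values between -0.046 and 0.085. On the positive side were Etv5, an ETS factor gene that responds to fibroblast growth factor signalling, at 0.47 (SE 0.097, DESeq2 adjusted p = 1.13e-05), and Grhl2, an epithelial regulator, at 0.60 (SE 0.21) in the authors' deposited table.

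Foxd3 shared its sign with the naive genes. Among 17 naive genes the authors' deposited table has 14 that were positive past the threshold, 1 was negative and 2 did not pass, and the median was 0.89. Tbx3 had 2.39 (SE 0.18), Zfp42 1.10 (SE 0.092) and Esrrb 0.91 (SE 0.13) there, so the value of Foxd3 lay within their range. The negative exception was Dppa3, at -0.76 (SE 0.19, DESeq2 adjusted p = 0.000283). The authors' deposited table has 6 of 7 general pluripotency genes positive past the threshold, while Sox2 did not pass, and their median was 0.41. Centring on ribosomal protein genes left 4 of these 7 past the threshold. The positive call of Pou5f1, at 0.26 (SE 0.10), was among those lost, and it was also lost at an adjusted p under 0.01.

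Receptors and feedback genes of the fibroblast growth factor pathway, through which Fgf4 and Fgf5 signal to ERK, were mostly negative like Fgf5. Of 20 such genes in the authors' deposited table, 11 were negative past the threshold, 1 was positive and 8 did not pass, and their median was -0.37. The 1 positive gene was Etv5 at 0.47 (SE 0.097), which had the highest mean count of the list. Among the 8 that did not pass were Etv4 at 0.085 (SE 0.20), Spred2 at 0.046 (SE 0.092) and Il17rd at -0.14 (SE 0.13). Genes of phosphatases that ERK activity induces had the 3 smallest adjusted p-values of this list in the authors' deposited table: Dusp4 had -2.98 (SE 0.22), Dusp6 -1.02 (SE 0.14) and Dusp5 -1.34 (SE 0.21). Among the receptors, Fgfr1 had -0.31 (SE 0.098), Fgfr2 -0.66 (SE 0.16) and Fgfr3 -1.98 (SE 0.40) in the authors' deposited table, all past the threshold, and Fgfr4 did not pass. Egr1, an immediate early target of ERK, had -1.53 (SE 0.54) there. Of the sprouty genes, which encode feedback inhibitors, Spry1 passed at -0.59 (SE 0.16), while Spry2 and Spry4 did not pass, at -0.21 (SE 0.11) and -0.18 (SE 0.14).

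Genes of later lineages bear on the factors because Otx2, Zic2 and Pou3f1 are also expressed in the early neural plate and Fgf5 precedes the primitive streak. Of 10 primitive streak genes with a row in the authors' deposited table, 7 were negative past the threshold, 0 were positive and 3 did not pass. Their median was -3.05. A mean count under 100 was found for 6 of the 10, and 4 further listed genes were not analysed here. T, the brachyury gene, had -6.56 (SE 0.79, DESeq2 adjusted p = 3.89e-15) and Wnt3, which induces the streak, had -5.87 (SE 0.74) there, of a size with Fgf5. Neural genes were split. Of 7 with a row, 3 were negative and 2 positive past the threshold, with Nes at -4.07 (SE 0.23) and Sox21 at -1.36 (SE 0.29) against Tubb3 at 1.04 (SE 0.098) and Sox1, the earliest neural plate marker, at 1.01 (SE 0.22) in the authors' deposited table. A further 9 listed neural genes, among them Pax3 and Zic1, were not analysed here.

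Many markers of other cell types shared the sign of the negative factors. Of 14 trophectoderm genes with a row in the authors' deposited table, 8 were negative past the threshold, 0 were positive and 6 did not pass. Their median was -1.74. Krt19 (-4.73, SE 0.31) had the smallest adjusted p-value and Cdx2, the trophectoderm master factor, the lowest value (-5.82, SE 0.96). Those that did not pass were Gata3, Gata2, Tfap2c, Tead4, Ascl2 and Esx1, and 7 of the 14 genes had a mean count under 100. Of 11 fibroblast and feeder genes, 7 were negative and 0 positive past the threshold, and 4 did not pass. Their median was -1.67, with Tagln at -5.96 (SE 0.50) the lowest. Vim and Thy1 had 0.20 (SE 0.23) and 0.34 (SE 0.43) in the authors' deposited table, neither past the threshold. Genes of this list are not all restricted to fibroblasts, whichever their sign. Of the 18 fibroblast genes listed, 7, including Col3a1, Dcn and Postn, were not analysed here, and Col1a1 and Col1a2 had mean counts of 20.9 and 10.1. Of 13 primitive endoderm genes in the authors' deposited table, 4 were negative past the threshold, 2 were positive and 7 did not pass. Dab2 had -2.18 (SE 0.28) and Lama1 had 1.91 (SE 0.16) there. Gata4, Gata6, Sox7 and Pdgfra did not pass, at mean counts of 9.05 to 14.7, and 7 of the 13 had a mean count under 100. The summed level of these markers in each group was not analysed here, and the part of these cell types in the values of the 6 factors was not tested.

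**Figure D5:**
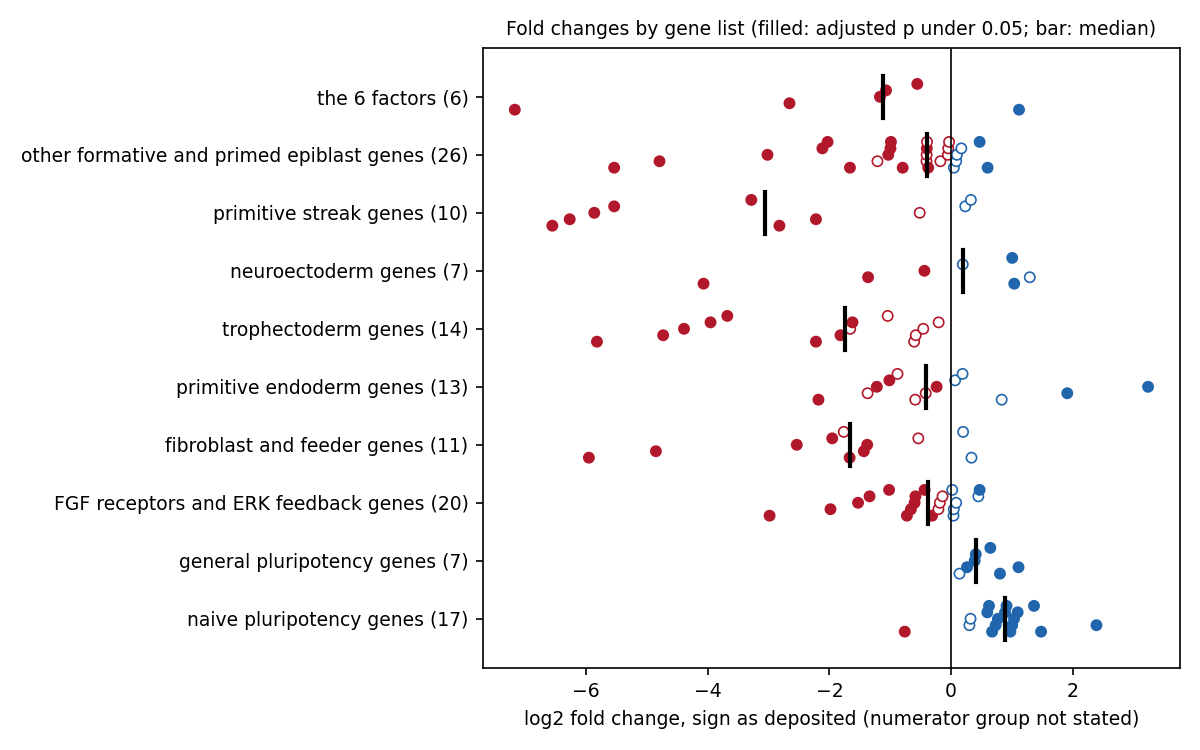
Log2 fold changes of single genes by list, with the number of genes with a row in parentheses; filled points passed an adjusted p-value of 0.05 and the bar is the list median. The medians run from -3.05 for primitive streak genes to 0.89 for naive genes. Between them lie trophectoderm genes at -1.74, fibroblast and feeder genes at -1.67 and the 6 factors at -1.12. Foxd3 at 1.12 lies among the naive genes.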

How the data were processed

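Polyadenylated RNA of 6 sorted samples was sequenced on a DNBSEQ platform in paired-end mode, per the labels' protocols. The submitters' processing notes name FastQC 0.12.1, Trimmomatic 0.39, STAR 2.7.11b, RSEM 1.3.3, DESeq2 1.45.3 and the build GRCm39, without settings. For each gene the authors deposited a mean normalized count, a signal averaged over libraries. They also deposited a log2 fold change with its SE. The deposited statistic is a score that differed by at most 5.77e-07 from the fold change over its SE. The p-value and adjusted p-value are those the authors deposited. The deposited calls equal an adjusted p under 0.05 with an absolute log2 fold change over 0.5, with 0 exceptions. No model was refitted. A planned edgeR fit was not possible, because 6 count columns match no sample label and were not used. Replicate dates could therefore not be examined as batches. The p-values test a difference between the groups against the authors' estimate of spread, for these samples only.

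Intervals are the estimate plus or minus the normal 95% quantile times the SE (Python 3.11.15, scipy 1.17.1). Exon lengths and gene order came from GENCODE M21 by gene identifier, for 16795 of 17110 genes. Promoters came from RefSeq (GRCm38.p6), with 4 of the 6 factors matched. The recomputed adjustments were tested on simulated data. The 6 factors and the lists were chosen with earlier results of these data known. Named genes are the 6 factors, paralogs past the threshold, and in each other list the 3 smallest adjusted p-values with a mean count no lower than 100, plus the most abundant gene, with 5 stem cell markers. The neighbours and other genes named were chosen after the table was seen. Listed genes without a row are in no list count, and 1 further gene is not reported here. No gene is named for a similar pattern across samples.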

Additional observations from a re-analysis of the deposited data

How the results depend on the processing

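Under 7 alternatives Otx2 was the only one of the 6 factors to lose its call, which left 5 of 6. It did so at an adjusted p under 0.01 and at an absolute log2 fold change over 1 (-0.56 in both). Only centring alters a fold change, so under the other alternatives a kept sign carries no information. Under centring on all genes, centring on 77 ribosomal protein genes, a minimum mean count of 50 and a recomputed adjustment, the adjusted p of Otx2 lay between 0.0167 and 0.0476. Ribosomal centring shifted fold changes by 0.093 and centring on all genes by 0.0097. Both shifts are smaller than the fold change of any of the 6 factors, so their signs could not change. Requiring an absolute log2 fold change over 1 lowered, by its own construction, the number past the threshold from 5211 to 2272 over all genes, from 14 to 7 for other formative and primed genes, from 15 to 6 for naive genes, from 8 to 4 for paralogs and from 12 to 5 for the receptor and feedback list. General pluripotency genes went from 6 to 4 after ribosomal centring, to 3 at a limit of 0.5 and to 1 at a limit of 1. A minimum mean count of 50 left fewer genes tested and 4 primitive streak and 5 trophectoderm genes past the threshold. Of 321 values of 46 named genes under an alternative, 299 kept sign and call, 22 lost the call and 0 changed sign. Here too a sign could change only under centring. No paired analysis was possible because no value could be tied to a replicate number. For the same reason DESeq2 and edgeR fits, other count filters and fits that leave out each replicate were not run, and whether 1 library decides a value is not answered here. Depth per library is unknown here.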
